A study of Mus musculus with 9 samples.

Results

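The 8 genes described here make, break down, carry or sense serotonin, and were taken by name from the 56748 genes counted in mouse epididymal adipose tissue. They are the tryptophan hydroxylases *Tph1* and *Tph2*, the decarboxylase *Ddc*, the monoamine oxidases *Maoa* and *Maob*, the serotonin transporter *Slc6a4*, and the receptors *Htr2a* and *Htr2b*. The list was drawn up with earlier results of these data known, and *Tph2* was chosen by its measured fold change at WL2 against Pre, one of the largest falls after 2 weeks of weight loss. That fall is therefore given as a description, without a test. RNA was sequenced from male WT C57BL/6J mice that entered the study at 8 weeks of age and were all fed a high-fat diet (HFD) for 8 weeks. Pre was sampled at the end of HFD, WL1 after 1 further week on standard diet (SD) and WL2 after 2 further weeks on SD, with 3 libraries per phase. No mice kept on HFD over the same further weeks were analysed here, so the diet and the later age of WL1 and WL2 cannot be told apart. The labels do not say whether the libraries come from separate mice, so the p-values measure the spread between libraries.

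Serotonin is made from tryptophan in a hydroxylation by a tryptophan hydroxylase, which limits the rate, followed by a decarboxylation by Ddc. *Tph1* is known as the gene of the gut and other peripheral tissues, and *Tph2* as the gene of the serotonergic neurons of the brain and gut. Monoamine oxidases in the outer mitochondrial membrane start the breakdown of serotonin, which reaches them through the transporter Slc6a4 or through low-affinity organic cation transporters. Adipose tissue receives serotonin from the gut and from platelets, and its adipocytes are known to respond through Htr2a, which favours lipid storage, and Htr2b, which favours lipolysis.

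The libraries held between 16434450 and 22729072 counts, with mitochondrial genes taking between 1.86% and 3.57% of them, and no library was identical to another. Levels are given as CPM, the counts relative to library size with TMM scaling factors, when 1 gene is compared between libraries, and as FPKM, which also divides by gene length, when genes are compared with each other. Of the 8 genes, 7 reached 0.5 CPM in at least 1 library and were tested among 18510 genes. *Tph1* did not. Most of the adipocyte genes were among the most abundant marker genes in every phase, led on average by *Fabp4* and *Cidec*. The sum of 8 of them lay between 18910 and 33480 CPM. *Pparg* was scarcer, with means of 196, 156 and 227 CPM at Pre, WL1 and WL2, as was *Retn* at WL1 (211 CPM). Genes of the epididymis and testis, led by *Prm2* and *Prm1* and with *Defb20* at 0 reads, summed to no more than 1.59 CPM in any library. In bulk tissue, fewer cells of a type and less RNA per cell cannot be told apart.

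*Tph2* (ENSMUSG00000006764) lies on the minus strand of chromosome 10 from 114914546 to 115020927, and *Tph1* (ENSMUSG00000040046) on the minus strand of chromosome 7 from 46294065 to 46321961, as the authors' table places them. The labels name GRCm38, yet none of the 8 genes has its GRCm38 coordinates in that table, so the build of these positions is not settled. Both genes encode the same enzymatic step, and their start regions are shown because the levels of the 2 transcripts were so unequal in this tissue. The sequences are the 250 bases before the RefSeq starts on GRCm38.p6, on the minus strand and read 5′ to 3′. They are chr10:115185023-115185272 for *Tph2*, and chr7:46667378-46667627 (start 1) and chr7:46672538-46672787 (start 2) for *Tph1*. Capitals mark matches, on either strand, to the TATA box TATAAA, the box CCAAT or the GC box GGGCGG, and no match overlaps another.

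Tph2: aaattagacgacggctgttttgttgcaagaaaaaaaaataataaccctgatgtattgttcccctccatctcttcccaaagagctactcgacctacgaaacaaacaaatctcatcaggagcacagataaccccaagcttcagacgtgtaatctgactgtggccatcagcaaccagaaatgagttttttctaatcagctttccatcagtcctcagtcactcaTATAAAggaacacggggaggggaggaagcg

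Tph1 start 1: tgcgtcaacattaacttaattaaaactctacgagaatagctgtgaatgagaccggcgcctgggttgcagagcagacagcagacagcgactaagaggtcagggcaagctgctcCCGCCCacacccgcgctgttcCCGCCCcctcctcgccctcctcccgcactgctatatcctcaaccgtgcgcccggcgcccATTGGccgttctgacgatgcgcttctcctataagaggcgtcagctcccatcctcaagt

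Tph1 start 2: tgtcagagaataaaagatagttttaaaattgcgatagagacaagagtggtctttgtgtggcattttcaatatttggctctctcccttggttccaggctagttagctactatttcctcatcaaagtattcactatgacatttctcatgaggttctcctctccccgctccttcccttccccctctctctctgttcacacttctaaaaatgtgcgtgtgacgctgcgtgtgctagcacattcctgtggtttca

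The *Tph2* window held 1 TATAAA, a motif found in 12.4% of 32851 such mouse windows, and 7 CpG sites in 43.6% GC. The first *Tph1* window was richer in GC, at 58.8% with 19 CpG sites, and held 2 GC boxes and 1 CCAAT, which occur in 32.7% and 33.8% of the windows. The second *Tph1* window, with 43.6% GC and 5 CpG sites, held none of the 3 motifs. The E-box CACGTG, the cyclic AMP element TGACGTCA, the sterol element TCACNCCAC and the nuclear receptor repeat DR1 matched in none of these windows, nor in any of the 9 windows of the 7 genes that the table holds. These motifs occur in 6.02%, 1.55%, 1.05% and 0.0335% of all windows. Letters alone do not show that a factor binds. The table has no entry for *Maob*.

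*Tph2*, the hydroxylase best known from serotonergic neurons, was the third most abundant of the 8 genes per length at Pre, at 15.7 ± 9.50 FPKM (SD, n = 3), close to the monoamine oxidases. This placed it above 83.3% of the tested genes. In CPM it read 29.5, 33.4 and 81.8 in the Pre libraries, 5.65, 6.84 and 18.5 at WL1, and 0.602, 0.567 and 0.927 at WL2. The 3 phases did not overlap, and the lowest library of each phase lay above the highest of the next. Of all tested genes, 28.7% had no overlap at WL1 against Pre, 30.9% at WL2 against Pre and 30.3% at WL2 against WL1. *Tph2* was chosen from these values, so nothing is read from its separation. The raw reads of *Tph2* were 2879 at Pre, 582 at WL1 and 37 at WL2, summed over 3 libraries each.

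Relative to Pre, the level of *Tph2* was 4.69-fold lower at WL1 (log2 fold change -2.23, SE 0.48) and 68.7-fold lower at WL2 (log2 fold change -6.10, SE 0.64). The model's 95% interval of the second ratio runs from 25.7-fold to 184-fold. It takes no account of the choice of the gene by this same fall, so nothing is read from it. From WL1 to WL2 alone, the level was 14.6-fold lower (log2 fold change -3.87, SE 0.64). Leaving out the third Pre library gave a log2 fold change of -5.48 from Pre to WL2, and leaving out the third WL1 library gave -3.14 from WL1 to WL2. Each of these contrasts shares libraries with the one that chose the gene, so no p-value is given. Ordered from the largest fall, *Tph2* was at rank 298 of 18510 at WL1 and at rank 62 at WL2 against Pre. At WL2 its level of 0.228 ± 0.0667 FPKM lay above 13.3% of the tested genes.

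The spread within a phase was wide. The third Pre library held 81.8 CPM, well above the others of its phase, and the third WL1 library held 18.5 CPM beside 5.65 and 6.84. Without that WL1 library the log2 fold change at WL1 was -2.96, and without that Pre library it was -1.61. Even the lowest Pre library, at 29.5 CPM, was above every WL1 library.

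**Figure D1:**
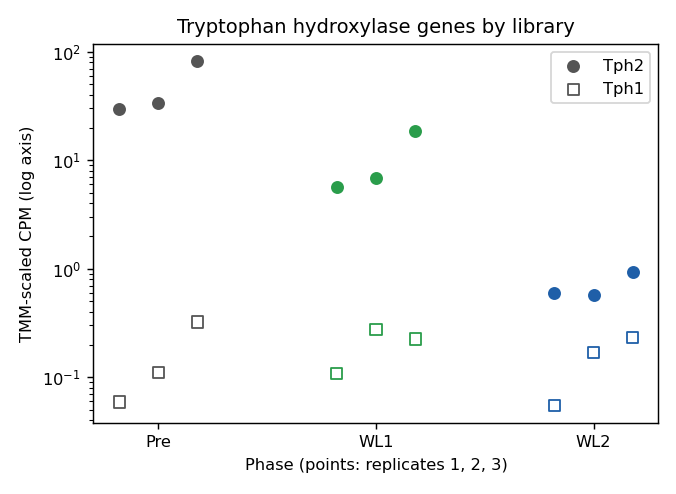
Levels of *Tph2* (filled circles) and *Tph1* (open squares) in each library, as TMM-scaled CPM on a log axis, by phase with replicates 1, 2 and 3 from left to right. *Tph2* goes from between 29.5 and 81.8 CPM at Pre to between 0.567 and 0.927 CPM at WL2, while *Tph1* reaches at most 0.323 CPM in the 9 libraries.

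*Tph1*, the hydroxylase of gut enterochromaffin cells, was close to the limit of detection throughout. It had 1, 2 and 7 reads in the Pre libraries, 2, 6 and 4 at WL1, and 1, 3 and 4 at WL2, so its ranges overlapped in every pair of phases. At 0.0250, 0.0304 and 0.0233 FPKM it was the lowest of the 8 genes in each phase. It was below the filter, and with no filter its log2 fold change was 0.27 (SE 1.01, edgeR adjusted p = 0.947) from Pre to WL1 and -0.42 (SE 1.02, adjusted p = 0.924) from WL1 to WL2. Per length, *Tph2* made up 99.86% ± 0.0458 of the summed tryptophan hydroxylase FPKM at Pre, 98.9% ± 0.665 at WL1 and 91.07% ± 4.31 at WL2 (mean ± SD, n = 3). It was the larger of the 2 in every library, by 1074 times in the first Pre library and by 7.15 times in the second WL2 library.

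*Ddc* (ENSMUSG00000020182; chromosome 11, 11764101 to 11848144, minus strand), the decarboxylase that completes both serotonin and dopamine synthesis, was also scarce. It stood at 0.118, 0.386 and 0.508 CPM in the Pre libraries, 0.543, 0.138 and 0.506 at WL1, and 0.0548, 0.736 and 0.347 at WL2. These are between 1 and 13 reads per library, and the phases overlapped fully. The log2 fold changes were 0.19 (SE 0.87, 95% interval -1.73 to 2.11) at WL1 and 0.14 (SE 0.87) at WL2 against Pre. The first had an adjusted p of 0.921 (edgeR, Benjamini-Hochberg), and the interval spans more than a 3-fold change in either direction. A change within that interval was not detectable at this depth. From WL1 to WL2 the value was -0.05 (SE 0.87, edgeR adjusted p = 0.987).

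The monoamine oxidases were the most abundant of the 8 genes per length. *Maoa* (ENSMUSG00000025037; chromosome X, 16485937 to 16554057, plus strand) encodes the form that prefers serotonin, and *Maob* (ENSMUSG00000040147; chromosome X, 16575521 to 16683605, minus strand) the form that prefers phenylethylamine. The 2 genes lie tail to tail, 21464 bp apart. At Pre they stood at 16.8 ± 1.31 and 18.9 ± 2.06 FPKM (mean ± SD, n = 3), which did not differ beyond their spread.

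*Maob* dipped at WL1 and was back near its Pre level at WL2. It stood at 51.5, 63.0 and 54.0 CPM in the Pre libraries, 27.0, 29.6 and 24.6 at WL1, and 43.7, 59.5 and 54.3 at WL2. Every WL1 library was below every library of the other phases, which overlapped with each other. *Maob* fell 2.07-fold from Pre to WL1 (log2 fold change -1.05, SE 0.14, edgeR adjusted p = 0.00236) and rose 1.94-fold from WL1 to WL2 (log2 fold change 0.96, SE 0.14, edgeR adjusted p = 0.00945). The fall passed the threshold in all 18 alternative analyses. The rise missed it when the second WL2 library was left out (log2 fold change 0.86, adjusted p = 0.063). Between Pre and WL2 the difference was -0.10 (SE 0.14).

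Mitochondrial genes took between 3.15% and 3.57% of the counts in the Pre libraries, between 1.86% and 2.03% in the WL1 libraries and between 2.28% and 2.88% in the WL2 libraries, lowest at WL1 like *Maob*. The summed markers of adipocytes ranged from 26950 to 33480 CPM in the Pre libraries, from 18910 to 24170 in the WL1 libraries and from 24020 to 28000 in the WL2 libraries, so that WL2 overlapped both other phases. Of 8 adipocyte markers, 4 fell at WL1 against Pre (*Plin1*, *Cidec*, *Lep* and *Retn*) and none rose, against 7.29% of all tested genes that changed. From WL1 to WL2 *Retn* and *Pparg* rose and *Lep* fell further, and at WL2 *Lep* and *Cidec* were still lower than at Pre. Peripheral nerve markers, led by *Uchl1* and *Stmn2*, ranged in sum from 17.9 to 20.9 CPM at Pre, from 12.1 to 15.4 at WL1 and from 22.3 to 25.4 at WL2, with *Th* and *Dbh*, the noradrenaline synthesis genes, at 0 reads in all 9 libraries. Of these markers *Stmn2* alone passed, higher at WL2 than at Pre and WL1. The return of the sum was not shared by all of them. Of the 6 tested nerve markers, all 6 were lower at WL1 than at Pre. At WL2 against Pre 2 were higher and 4 lower, among the latter the noradrenaline transporter gene *Slc6a2* (means of 1.44, 0.273 and 0.242 CPM at Pre, WL1 and WL2). The part of either cell type, or of the mitochondrial share, in the dip of *Maob* was not tested.

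*Maoa* was highest at Pre and lowest at WL2 on average. It stood at 80.3, 68.5 and 74.3 CPM in the Pre libraries, 58.3, 49.7 and 77.8 at WL1, and 46.2, 45.8 and 51.5 at WL2. The WL2 libraries were all below the Pre libraries, and the WL1 libraries overlapped both. The log2 fold change was -0.26 (SE 0.15, 95% interval -0.61 to 0.08, edgeR adjusted p = 0.322) from Pre to WL1 and -0.37 (SE 0.16, adjusted p = 0.199) from WL1 to WL2, neither past the threshold. At WL2 against Pre, given as a description, it was -0.64 (SE 0.16).

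**Figure D2:**
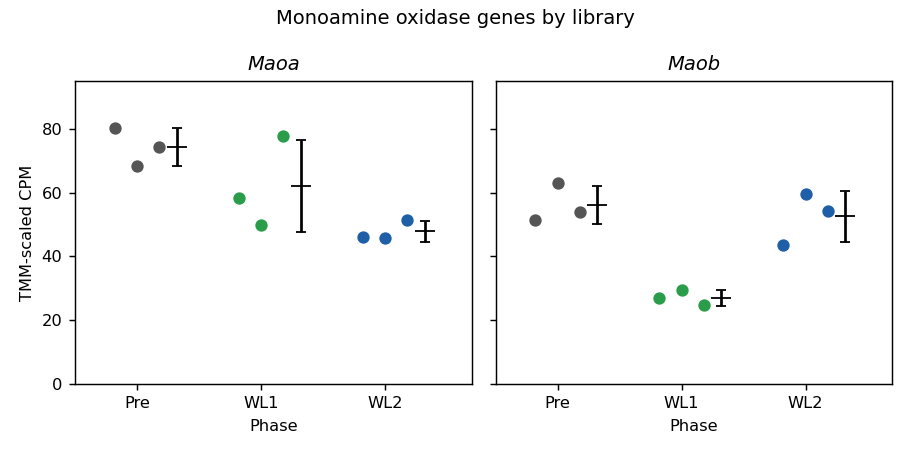
TMM-scaled CPM of *Maoa* and *Maob* in each library, by phase, with the mean and SD of 3 libraries as bars. *Maob* lies between 24.6 and 29.6 CPM at WL1 and at 43.7 CPM or above in all other libraries, and the *Maoa* mean goes from 74.4 at Pre to 61.9 at WL1 and 47.8 at WL2.

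The share of *Maob* in the pair was lowest at WL1 and highest at WL2. *Maob* made up 48.92%, 57.87% and 52.06% of their summed FPKM at Pre, 40.93%, 47.07% and 32.05% at WL1, and 58.58%, 66.03% and 61.16% at WL2. The 3 phases did not overlap. The differences of the means were -12.9 percentage points from Pre to WL1, 8.97 from Pre to WL2 and 21.9 from WL1 to WL2. Each had p = 0.1 in a two-sided exact permutation test, the smallest value that 3 libraries against 3 allow. Phases without overlap can give no other value, and the measure was chosen after the values had been seen, so nothing is read from these p-values. The summed level of both genes was 35.7 ± 0.904 FPKM at Pre, 22.7 ± 2.44 at WL1 and 28.5 ± 3.36 at WL2 (mean ± SD, n = 3).

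*Slc6a4* (ENSMUSG00000020838; chromosome 11, 76889429 to 76923166, plus strand), the high-affinity serotonin transporter of platelets and serotonergic neurons, was low and uneven. It read 0.295, 1.38 and 1.48 CPM in the Pre libraries, 2.12, 0.138 and 0.731 at WL1, and 0.493, 2.21 and 2.43 at WL2. Each phase held both a low and a high library, and the phases overlapped. The log2 fold change was -0.10 (SE 0.88, 95% interval -2.05 to 1.84, edgeR adjusted p = 0.960) from Pre to WL1, 0.69 (SE 0.86) from Pre to WL2 and 0.79 (SE 0.87, adjusted p = 0.668) from WL1 to WL2. The sign of the first value turned in 6 of 18 alternative analyses.

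Within each phase, the library lowest in *Slc6a4* was also the lowest in mesothelium markers. The 6 mesothelium genes, led by *Upk3b* and *Msln*, summed to 37.3, 366 and 327 CPM in the Pre libraries, to 219, 44.3 and 114 at WL1, and to 233, 500.3 and 658 at WL2. Across phases the order differed, since the first WL2 library held 233 CPM of these markers and 0.493 CPM of *Slc6a4*, and the third WL1 library 114 and 0.731 CPM. Platelet markers, led by *Pf4* and *Ppbp*, stayed between 38.9 and 63.5 CPM in all libraries with *Gp1bb* at 0 reads. Of the serotonergic neuron markers, *Fev*, the defining transcription factor, had 0 reads in all 9 libraries. The part of the mesothelium in the spread of *Slc6a4* was not tested.

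*Htr2b* (ENSMUSG00000026228; chromosome 1, 86026748 to 86039692, minus strand), a Gq-coupled receptor, was the receptor with the clearest movement. It read 0.649, 0.827 and 1.06 CPM in the Pre libraries, 2.99, 3.12 and 7.65 at WL1, and 4.16, 0.793 and 1.51 at WL2. All WL1 libraries were above all Pre libraries, whereas the WL2 libraries overlapped both. *Htr2b* rose 5.34-fold at WL1 against Pre (log2 fold change 2.42, SE 0.61, 95% interval 1.07 to 3.76, edgeR adjusted p = 0.0400), from 49 reads to 259. The call missed the threshold in 10 of 18 alternative analyses, with adjusted p between 0.00131 and 0.14 over all of them. It was lost when any single Pre or WL1 library, or the third WL2 library, was left out, and the log2 fold change was lowest without the third WL1 library (1.83, adjusted p = 0.14). The values were 1.34 (SE 0.61) at WL2 against Pre and -1.08 (SE 0.56, adjusted p = 0.308) at WL2 against WL1.

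The summed macrophage markers moved with *Htr2b*. The 8 genes, led by *Lyz2* and *Cd68*, summed to 1308, 2284 and 2086 CPM in the Pre libraries, to 2444, 2863 and 4599 at WL1, and to 2590, 1481 and 1688 at WL2. The third WL1 library was the highest of all 9 in both measures, and the first WL2 library the highest of its phase in both. Not every marker followed the sum. At WL1 against Pre 7 were higher and 1, *Cd163*, lower. From WL1 to WL2 6 were lower and 2 higher. Those 2 were *Cd163* (means of 59.8, 45.0 and 73.3 CPM at Pre, WL1 and WL2) and *Mertk* (38.9, 47.2 and 54.5 CPM). None of the 8 markers passed the edgeR test at WL1 against Pre, although 4 had an unadjusted p under 0.05. The part of macrophages in the level of *Htr2b* was not tested. *Htr2b* also lies within *Psmd1*, a proteasome subunit gene on the opposite strand (85992109 to 86066873), and no source used here says whether strand was used in counting. *Psmd1* stood at 104, 111 and 111 CPM in the 3 phases (log2 fold change at WL1 against Pre 0.10, edgeR adjusted p = 0.705).

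**Figure D3:**
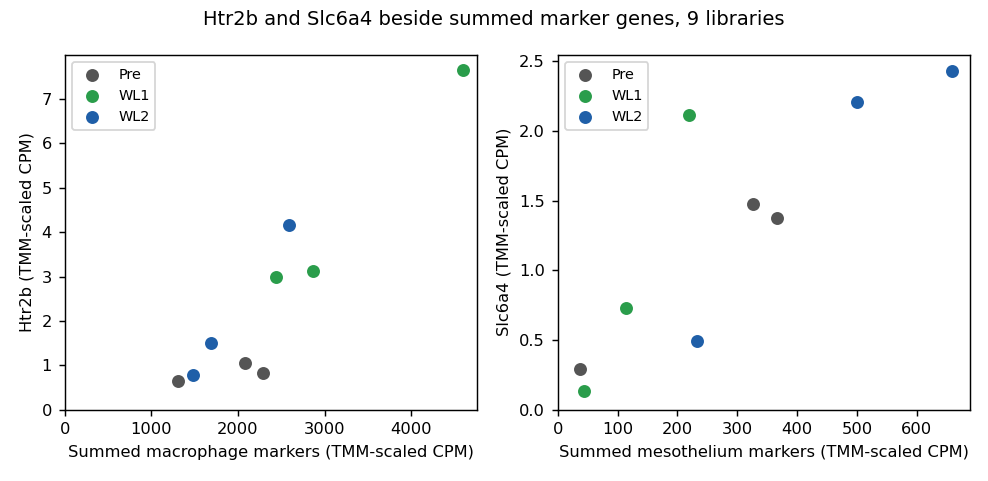
Left, *Htr2b* against the sum of 8 macrophage markers, and right, *Slc6a4* against the sum of 6 mesothelium markers, both as TMM-scaled CPM with 1 point per library. The highest *Htr2b* library (7.65 CPM) has the highest macrophage sum (4599 CPM), and the lowest *Slc6a4* library (0.138 CPM) has one of the 2 lowest mesothelium sums (44.3 CPM).

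*Htr2a* (ENSMUSG00000034997; chromosome 14, 74878280 to 74946934, plus strand), also Gq-coupled, stayed near the filter. It read 0.649, 1.54 and 1.15 CPM in the Pre libraries, 0.706, 0.459 and 0.618 at WL1, and 0.548, 1.25 and 0.811 at WL2. The phases overlapped. The log2 fold change was -0.91 (SE 0.47, 95% interval -1.96 to 0.14, edgeR adjusted p = 0.268) from Pre to WL1, -0.36 (SE 0.46) from Pre to WL2 and 0.55 (SE 0.48, adjusted p = 0.576) from WL1 to WL2.

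**Figure D4:**
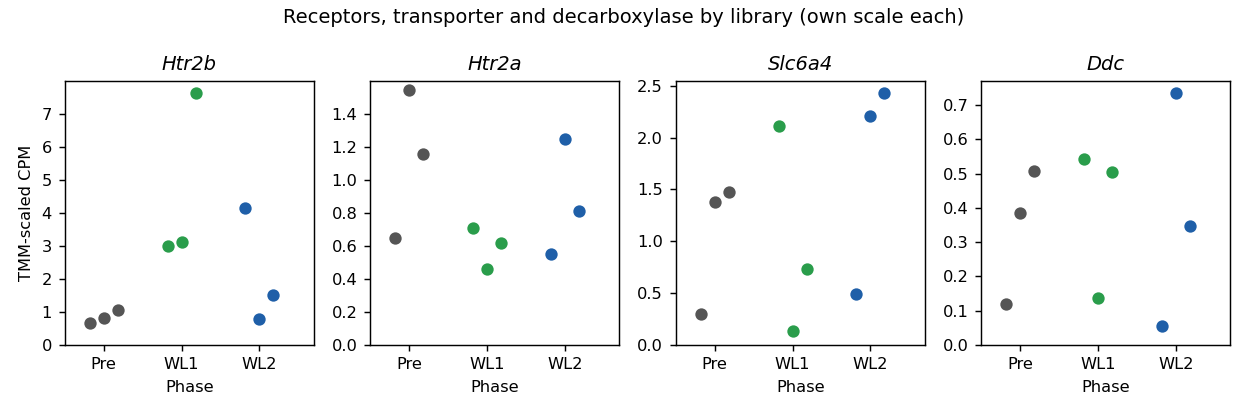
TMM-scaled CPM of the 4 scarcer genes *Htr2b*, *Htr2a*, *Slc6a4* and *Ddc* in each library, by phase, each panel with its own scale from 0. In *Htr2b* the WL1 points (2.99 to 7.65 CPM) lie above the Pre points (0.649 to 1.06 CPM), and in the other panels the phases overlap.

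Of the 6 tested genes other than *Tph2*, 2 passed the edgeR threshold at WL1 against Pre (*Htr2b* higher, *Maob* lower), against 7.29% of all tested genes (2.60% higher and 4.69% lower). At WL2 against WL1, 1 of 6 passed (*Maob* higher), against 3.68% (1.31% higher and 2.37% lower). At WL2 against Pre, the contrast that the list was drawn from, 1 of 6 was past it (*Maoa* lower), against 10.0% (3.35% higher and 6.66% lower), and nothing is read from that count. The median log2 fold changes of the 6 genes were -0.18 at WL1 and 0.02 at WL2 against Pre, beside 0.02 and 0.01 over all tested genes. Libraries without overlap were seen for *Maob* and *Htr2b* at WL1 against Pre, in a setting where 28.7% of all tested genes had none. They were also seen for *Maoa* at WL2 against Pre (30.9%) and for *Maob* at WL2 against WL1 (30.3%).

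**Figure D5:**
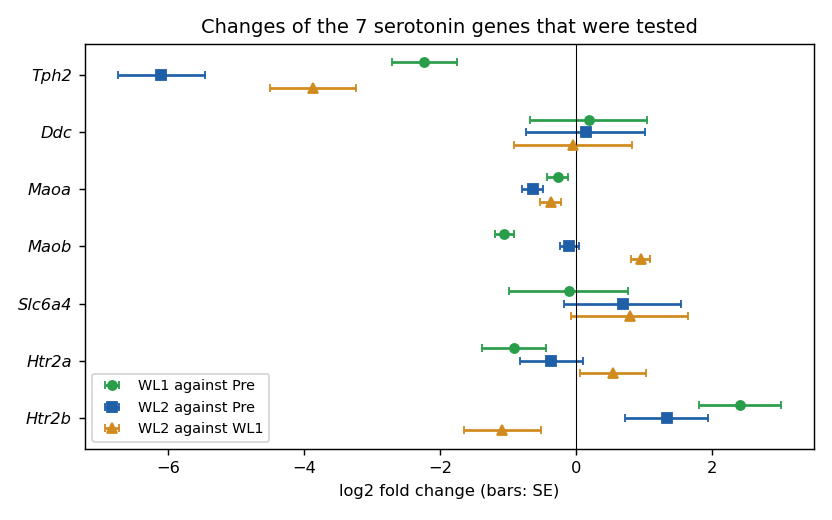
Log2 fold changes of the 7 tested genes in the 3 comparisons, from edgeR's quasi-likelihood fit, with bars of 1 SE. *Tph2* reaches -6.10 at WL2 against Pre, *Maob* goes from -1.05 (WL1 against Pre) to 0.96 (WL2 against WL1), and the bars of *Ddc* and *Slc6a4* are wide.

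The order of the 8 genes per length at Pre was *Maob*, *Maoa*, *Tph2*, *Htr2b*, *Slc6a4*, *Htr2a*, *Ddc* and *Tph1*. Neighbours within the first 3 did not differ beyond their spread, nor did *Slc6a4* (0.218 ± 0.136 FPKM) and *Htr2a* (0.187 ± 0.0753 FPKM). At WL1 *Maoa* (13.8 ± 3.23 FPKM) stood above *Maob* (8.98 ± 0.804 FPKM) with no overlap, followed by *Tph2* (3.32 ± 2.29 FPKM) and *Htr2b* (1.99 ± 1.16 FPKM), which did not differ beyond their spread. At WL2 *Maob* (17.7 ± 2.99 FPKM) and *Maoa* (10.8 ± 0.826 FPKM) were followed by *Htr2b*, *Slc6a4* and then *Tph2*, at 0.939 ± 0.758, 0.357 ± 0.224 and 0.228 ± 0.0667 FPKM. The libraries of *Slc6a4* overlapped with those of both its neighbours in this order.

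Of 47 other genes of serotonin and tryptophan handling, 32 were tested. At WL1 against Pre 2 rose and 2 fell, at WL2 against Pre 2 rose and 6 fell, and from WL1 to WL2 the numbers were 1 and 1. These counts of 32 stand beside 7.29%, 10.0% and 3.68% of all tested genes. Their median log2 fold changes were -0.06, -0.22 and -0.02 (0.02, 0.01 and 0.00 over all tested genes).

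Among the other serotonin receptors, 8 of 12 had 0 reads in all 9 libraries, which allows up to 0.0178 CPM over the pooled libraries, and 3 had between 1 and 15 reads in all. Only *Htr7*, a Gs-coupled receptor, was tested. It averaged 0.892, 0.645 and 0.661 CPM in Pre, WL1 and WL2, with log2 fold changes of -0.47 (SE 0.59, edgeR adjusted p = 0.667) and -0.44 (SE 0.59, adjusted p = 0.672) against Pre. The vesicular monoamine transporters *Slc18a1* and *Slc18a2*, which load serotonin into granules, were at 1.19 and 2.07 CPM at Pre and passed in none of the 3 comparisons.

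Of the 6 transport and storage genes, 3 fell at WL2 against Pre and none rose, against 10.0% of all tested genes that changed and 6.66% that fell. All 3 are transporters that carry serotonin with low affinity. *Slc22a3*, the most abundant of the transport genes at 19.6 FPKM, read 122, 114 and 128 CPM in the Pre libraries, 81.5, 86.1 and 68.3 at WL1, and 82.9, 85.5 and 84.1 at WL2. It fell by 0.63 on the log2 scale at WL1 (SE 0.11, edgeR adjusted p = 0.00963) and by 0.53 at WL2 (SE 0.11, adjusted p = 0.0134), calls that held in 18 and 15 of 18 alternative analyses. *Slc22a2* read 5.66, 4.57 and 4.25 CPM at Pre and 2.14, 1.70 and 1.56 at WL2 (log2 fold change -1.42, SE 0.31, adjusted p = 0.0176), a call that held in 15 of 18. *Slc29a4*, the plasma membrane monoamine transporter, fell by 1.61 on the log2 scale at WL2 against Pre (SE 0.45, adjusted p = 0.0470), from 1.22 ± 0.262 to 0.393 ± 0.161 CPM (SD, n = 3), a call that held in 5 of 18 alternative analyses. All 3 had Pre libraries above all WL2 libraries, in a setting where 30.9% of all tested genes had no overlap.

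Tryptophan hydroxylases need tetrahydrobiopterin. Of the 7 genes that make, recycle or regulate it, 1 changed, beside 7.29% (WL1) and 10.0% (WL2) of all tested genes against Pre. *Pcbd1*, a dehydratase of the recycling path, read 39.5, 29.9 and 29.2 CPM in the Pre libraries, 14.0, 17.2 and 16.9 at WL1, and 14.5, 18.0 and 14.0 at WL2. It fell 2.04-fold at WL1 (log2 fold change -1.03, SE 0.16, edgeR adjusted p = 0.00551) and 2.12-fold at WL2 (log2 fold change -1.08, SE 0.16, adjusted p = 0.00241), in both cases with no overlap and in all 18 alternative analyses. Of all tested genes, 28.7% at WL1 and 30.9% at WL2 had no overlap with Pre. *Qdpr*, the reductase of the same path and the most abundant of the 7 at 30.0 FPKM, had log2 fold changes of -0.23 and -0.24 that did not pass (edgeR adjusted p = 0.382 and 0.356).

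Genes of further modification moved in both directions. *Inmt*, which methylates indole amines such as tryptamine, read 22.4, 19.7 and 10.0 CPM in the Pre libraries, 46.3, 35.6 and 40.8 at WL1, and 71.2, 105 and 77.8 at WL2. It rose 2.37-fold at WL1 (log2 fold change 1.24, SE 0.26, edgeR adjusted p = 0.0220) and 4.90-fold at WL2 (log2 fold change 2.29, SE 0.27, adjusted p = 0.000613), calls that held in 16 and 18 of 18 alternative analyses. *Sult1a1*, a phenol sulfotransferase, rose 1.90-fold at WL2 against Pre (log2 fold change 0.93, SE 0.17, adjusted p = 0.00725) and 1.69-fold against WL1 (log2 fold change 0.75, SE 0.17, adjusted p = 0.0391), calls that held in 18 and 9 of 18 alternative analyses. *Tgm2*, a transglutaminase that can attach serotonin to proteins, fell by 0.37 on the log2 scale at WL2 against Pre (SE 0.10, adjusted p = 0.0376), and that call held in 7 of 18 alternative analyses. *Aldh2*, the aldehyde dehydrogenase that follows the oxidases and the most abundant of this group at 110 FPKM, passed in none of the 3 comparisons.

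Of the tryptophan uptake genes, *Slc7a5*, the light chain of a large neutral amino acid transporter, read 12.0, 18.9 and 12.5 CPM in the Pre libraries, 11.3, 10.1 and 17.3 at WL1, and 6.30, 4.99 and 6.25 at WL2. It fell by 1.31 on the log2 scale at WL2 against Pre (SE 0.25, edgeR adjusted p = 0.00920) and by 1.14 against WL1 (SE 0.25, adjusted p = 0.0370), calls that held in 17 and 9 of 18 alternative analyses. *Slc7a8*, an alternative light chain, rose by 0.47 at WL1 against Pre (SE 0.12, adjusted p = 0.0453), which held in 3 of 18. Their shared heavy chain gene *Slc3a2*, at 55.4 FPKM, passed in none of the 3 comparisons. None of the 6 tested genes of tryptophan use outside serotonin synthesis passed in any comparison in edgeR with the filter used here, although 1, 2 and 1 of them had an unadjusted p under 0.05 at WL1 and WL2 against Pre and at WL2 against WL1. *Kynu* passed at WL1 against Pre without the filter and in DESeq2, and *Afmid*, the most abundant of them at 0.640 FPKM, at WL2 against Pre without the first Pre library.

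The protein-coding genes whose levels followed *Tph2* most closely over the 9 libraries were sought among 13051 genes, as a description, since all genes share these libraries, their depth and the 3 phases. *Gys2*, the liver-type glycogen synthase gene, had the highest Pearson correlation of log2 CPM with *Tph2* (r = 0.992). It averaged 22.6 CPM in the Pre libraries, 6.68 at WL1 and 1.05 at WL2. *Col5a1*, a type V collagen chain (r = 0.991), averaged 660.9, 431 and 219.6 CPM, and *Ehbp1l1* (r = 0.990) averaged 213, 178 and 122 CPM. *Ugt3a2* and *Dpy19l1* both had r = 0.986. *Maob* was followed most closely by *Sccpdh* (r = 0.974) and by *Alad*, a haem synthesis gene (r = 0.972) that averaged 48.5, 22.0 and 40.7 CPM. For *Maoa* these were *Slc22a2*, described above (r = 0.937), and *Tsku* (r = 0.933). *Htr2b* was followed by *Cd9*, a tetraspanin (r = 0.979), at 68.2, 153 and 98.3 CPM, and by *Ccrl2*, a chemokine-binding receptor (r = 0.976). For *Slc6a4* these were *Sfrp2* (r = 0.978) and *Lrp2* (r = 0.973), and for *Htr2a* they were *Rasgrp4* (r = 0.919) and *Smoc2* (r = 0.904).

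The neighbours of *Tph2* on chromosome 10 shared its pattern in part or not at all. *Trhde*, a peptidase gene 276334 bp away, averaged 15.7, 5.07 and 5.65 CPM, and fell at WL1 (log2 fold change -1.63, edgeR adjusted p = 0.0167) and at WL2 (-1.48, adjusted p = 0.0170) against Pre, with no further decline of its mean from WL1 to WL2. *Tbc1d15*, 12850 bp away on the other side, averaged 56.6, 77.0 and 77.7 CPM and rose at both times (log2 fold changes 0.44 and 0.46, adjusted p = 0.0229 and 0.0146).

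Cell types that could hold *Tph2* or serotonin were looked at through their markers. Mast cell markers, 11 genes led by *Mcpt4* and *Cma1*, ranged in sum from 44.9 to 58.9 CPM at Pre, from 50.3 to 58.1 at WL1 and from 47.0 to 78.2 at WL2. None of the 10 tested passed in edgeR in any comparison, and 0, 3 and 2 of them had an unadjusted p under 0.05 at WL1 against Pre, WL2 against Pre and WL2 against WL1. Of these 10, 7 were higher and 3 lower at WL1 against Pre, and all 10 were higher at WL2 against Pre. From WL1 to WL2, 8 were higher and 2 lower. Of 8 markers of islet and enteroendocrine cells, *Ins1*, *Ins2*, *Iapp* and *Neurod1* had 0 reads in all libraries. The most abundant, the granule genes *Chga* and *Chgb*, averaged 2.29 and 0.0898 CPM at Pre, 1.42 and 0.157 at WL1, and 0.771 and 0.205 at WL2. *Chga* was tested and passed in none of the 3 comparisons (log2 fold change at WL2 against Pre -1.57, SE 0.52, edgeR adjusted p = 0.0851). Hepatocyte markers, led by *Alb* and *Apoa1*, summed to 11.7, 52.4 and 90.0 CPM in the Pre libraries, 74.8, 3.72 and 9.73 at WL1, and 3.94, 5.61 and 7.18 at WL2. Their order was that of *Tph2* within Pre, but not within WL1, where the library with the most hepatocyte reads held the least *Tph2*, nor in full within WL2. At WL2 against Pre 2 of the 6 fell (*Serpina1a*, log2 fold change -2.95, edgeR adjusted p = 0.00816, and *Apoc3*, -2.51, adjusted p = 0.0155), and in the other comparisons 0 of 6 passed in edgeR (0 of them from Pre to WL1, and 4 from WL1 to WL2, had an unadjusted p under 0.05). Smooth muscle markers, led by *Acta2* and *Smtn*, summed to between 441 and 575 CPM at Pre and to between 262 and 335 CPM at WL1 and WL2. Most of that difference was *Acta2*, which fell at both times against Pre (means of 365, 150 and 176 CPM). Of the 6 markers, 2 were higher and 4 lower than at Pre at each time, and *Smtn* averaged 77.2, 78.6 and 64.8 CPM. The part of these cell types in the level of *Tph2* was not tested.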

How the data were processed

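RNA of epididymal adipose tissue was sequenced by Novogene in 9 libraries, grouped by the sample labels into Pre, WL1 and WL2. The authors deposited raw counts (integers, not normalized) for each gene, and a table of FPKM per gene, which the authors normalized to gene length and library size. The submitters' processing notes name HISAT2, HISAT, TopHat2, CASAVA, GRCm38 and mm10 without roles. For the counting program, strand setting and annotation, no name is given in the sources used here. GENCODE M21 (GRCm38) lists 52073 of the genes, 1435 of them at the same coordinates.

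The 18510 genes of 56748 that reached 0.5 CPM in 1 library or more entered the quasi-likelihood test of edgeR 4.0.16 under R 4.3.3 (glmQLFit, glmQLFTest, TMM factors, 1 model over 9 libraries without covariates), with Benjamini-Hochberg adjustment and a threshold of 0.05. The steps were tested on simulated counts with known changes. The alternatives tried were a filter on 3 libraries or none, other scaling factors, library totals alone, DESeq2 1.42.0, limma 3.58.1 on log2(FPKM + 1) or log2(FPKM + 0.1), a fit limited to both compared phases, the replicate number as a block, and leaving out each library in turn. A level of 1 CPM is about 17 to 22 reads here, and limits for 0 reads (3 counts) cover counting error only, whereas the intervals of edgeR fold changes also hold the spread between libraries.

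The members, the lists of other serotonin genes and of cell markers, and the tests were chosen with earlier results of these data known. Of the other serotonin genes, those past the threshold in any comparison and the most abundant of each role group are named. For *Tph2* the 5, and for each other gene with a mean of at least 0.5 CPM the 2, protein-coding genes with the highest Pearson correlation of log2 CPM (prior count 4, mean of at least 1 CPM) are named. Of each marker list, the 2 most abundant genes and those at 0 reads are named, with those that passed where a result moved with the list. A few genes that these rules would name are not reported here. Sequences came from RefSeq and were matched by symbol for 7 of the 8 genes. Other marker lists are summarised here by their sums over all phases, which ranged from 45.4 to 76.8 CPM (Schwann cells, *Pmp2* at 0 reads), 3120 to 5654 CPM (fibroblasts, led by *Col3a1* and *Dcn*), 1031 to 1932 CPM (endothelium, led by *Cdh5* and *Pecam1*) and 13.7 to 22.3 CPM (serotonergic neurons, led by *Gata2* and *Gata3*, which blood cells and vessels also express). At WL2 against Pre 1 of 4 tested Schwann cell genes rose, and of 7 fibroblast genes 1 rose and 1 fell, beside 10.0% of all tested genes that changed. *Col3a1* averaged 2031, 2033 and 1099 CPM at Pre, WL1 and WL2, and *Dcn* 701, 847 and 1250 CPM. The serotonergic neuron sum was 20.85 CPM or more at WL2 and at most 20.11 CPM at Pre and WL1.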

Additional observations from a re-analysis of the deposited data

How the results depend on the processing

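The fold changes of *Tph2* kept their direction in all 18 alternatives. The gene was chosen by its fall in these same libraries, so the kept direction is a description and adds no support. At WL1 against Pre, leaving out single libraries gave log2 fold changes from -2.96 (without the third WL1 library) to -1.61. At WL2 against Pre they ran from -6.36 to -5.48, and limma on log2(FPKM + 1), whose pseudocount shrinks low genes, gave -3.63. At WL2 against WL1 they ran from -4.16 to -3.14 (without the third WL1 library), and limma on log2(FPKM + 1) gave -1.70. Of the 6 tested genes other than *Tph2*, 2, 1 and 1 were past the threshold in WL1 against Pre, WL2 against Pre and WL2 against WL1. All tested genes gave 7.29%, 10.0% and 3.68%. At WL1 against Pre, *Maob* passed in all 18 alternatives and *Htr2b* missed the threshold in 10 of 18. *Maob* at WL2 against WL1 missed it only without WL2 replicate 2. *Maoa* at WL2 against Pre kept its sign in all alternatives and its side of the threshold in 12 of 18.

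For the 47 other serotonin genes, the counts of 4, 8 and 2 ran from 2 to 4, from 3 to 7 and from 0 to 4 without single libraries, lowest without WL1 replicate 1 or 3, without WL2 replicate 2, and without any WL1 library or WL2 replicate 2 or 3. At WL2 against WL1 they were 4 without the filter, 5 with DESeq2 and 0 with limma on log2(FPKM + 1) and log2(FPKM + 0.1). The fold changes of the 7 genes turned sign only where the value was within 1 SE of 0. *Slc6a4* at WL1 against Pre was 0.004 with library totals alone and ran from -1.31 to 0.43 without single libraries. *Maob* at WL2 against Pre was 0.056 with library totals alone and ran from -0.20 to 0.02. *Ddc* at WL2 against WL1 was 0.013 with library totals alone and ran from -0.95 to 0.47, and against Pre it ran from -0.20 to 0.61 at WL1 and from -0.76 to 0.65 at WL2. With library totals alone the median log2 fold change of all genes was 0.12, 0.16 and 0.05, that is 0.10, 0.15 and 0.05 above its value with TMM factors. Over all genes, DESeq2 called 2292, 2664 and 1838 where edgeR called 1350, 1853 and 681, and without single libraries the counts ran down to 507, 746 and 37. The causes were not tested.

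No pairing of the libraries by replicate number was seen over the tested genes. Of 9 same-number pairs, 1 had a correlation of deviations over 0.1 (range -0.277 to 0.107). Of 18 library and phase pairs, 3 correlated best at the same number. Such correlations cannot exclude handling shared by number. With the replicate block, 844, 1399 and 330 genes were called, *Htr2b* at WL1 against Pre gave 2.37 (edgeR adjusted p = 0.0626), *Slc6a4* at WL1 against Pre gave 0.022, and 0 other serotonin genes passed at WL2 against WL1.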

Other observations

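In each phase the library numbered 3 held the most *Tph2* (81.8, 18.5 and 0.927 CPM). No pairing by replicate number was seen over the tested genes, which does not exclude handling shared by number. The order of *Tph2* was noticed after the values had been seen and was not tested.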
